A study of Arabidopsis thaliana with 6 samples.

Results

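The core histone genes of Arabidopsis thaliana were followed in ovules of the wild type and of the sgd mutant. The set holds 40 of the 30457 features listed, chosen by locus as the genes for histones H2A, H2B, H3 and H4. It has 8 H4 genes, 5 H3.1 genes, 3 H3.3 genes, 11 H2B genes and 13 H2A genes. The H2A genes divide into 4 of the replication-coupled H2A class, 2 of H2A.X, 3 of H2A.W and 4 of H2A.Z. Of the 40 genes, 37 had a mean of at least 1 FPKM (fragments scaled to transcript length and to the mapped fragments of the library) over all libraries and were tested.

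Poly(A) RNA was sequenced in 6 libraries of ovules at stages FG1 to FG3, the earliest steps of embryo sac growth, with 3 libraries labelled wild type and 3 labelled sgd. Both genotypes were in the qrt1 background, a mutation that keeps the pollen grains of a tetrad together, and both were grown in a greenhouse in long days. The sources used here do not name the locus altered in sgd. Whether the 3 libraries of a genotype came from separate plants is not in the labels. Each p-value weighs the difference between the group means against the scatter of these samples only, and part of that scatter may be technical.

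Core histones form the protein spool around which DNA is wrapped. The replication-coupled types (H4, H3.1, the main H2A and H2B) are made in bulk during S phase, when new DNA must be packed, and H3.1 is loaded behind the replication fork by the chaperone complex CAF-1. Variants are exchanged into chromatin outside replication as well: H3.3 at transcribed genes, H2A.Z by the SWR1 complex around gene starts, H2A.X as the form phosphorylated at DNA breaks, and H2A.W in plant heterochromatin. In plants the replication-coupled histone transcripts carry poly(A) tails, so they enter a poly(A) library.

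Most core histone genes had lower values in sgd ovules, and how many passed the test depended on the fit. Of the 37 tested genes, 8 fell and 0 rose at an adjusted p under 0.05 (limma on log2(FPKM + 1), Benjamini-Hochberg over all 18100 tested features, sgd minus wild type). Across all tested features, 4.47% were called lower and 13.3% higher in the same fit. Features with a coding sequence of at most 160 codons, as most histones have, were called lower in 7.62% and higher in 15.6% of cases. At an unadjusted p under 0.05 there were 23 of the 37, none of them higher in sgd, against 8.82% of all tested features lower and 21.4% higher at that threshold. The median log2 change of the 37 genes was -1.21, beside 0.127 for all tested features and 0.0069 for the short-coding features.

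Deviations from the group means correlated at 0.524 between the 2 libraries numbered 1. Numbers 2 and 3 correlated as well crossed (0.354 and 0.431) as within a number (0.236 and 0.377). These values cannot decide whether numbers 2 and 3 mark pairs. The labels do not say what a number marks. A fit with the number as a block called 30 of the 37 genes lower and 2 higher. In that fit 14.3% of all tested features were lower and 26.5% higher. Median-ratio scaling without a block gave 30 lower and 0 higher, against 18.2% lower and 19.8% higher of all features, and it moved the median of all features from 0.127 to 0.000633 on the log2 scale. All 3 sgd values lay below all 3 wild-type values for 22 of the 37 genes, against 8.8% of all tested features, and above them for 0 of the 37, against 26.8%. The sign was negative for 31 genes in each of 18 settings, positive for 3 (AT4G40030, AT4G40040 and HTA9) and mixed for 3 (HTA12, AT2G28720 and HTB9).

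The count of 8 rests on few libraries. It was 7, 3 and 3 without wild-type library 1, 2 or 3, and 5, 16 and 4 without sgd library 1, 2 or 3. Without both libraries numbered 1 it was 30, with 3 genes higher. The share of all features called was not counted when libraries were left out, so these counts have none beside them. AT3G45930, AT3G46320 and AT3G53650 were called lower in all 18 settings.

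**Figure D1:**
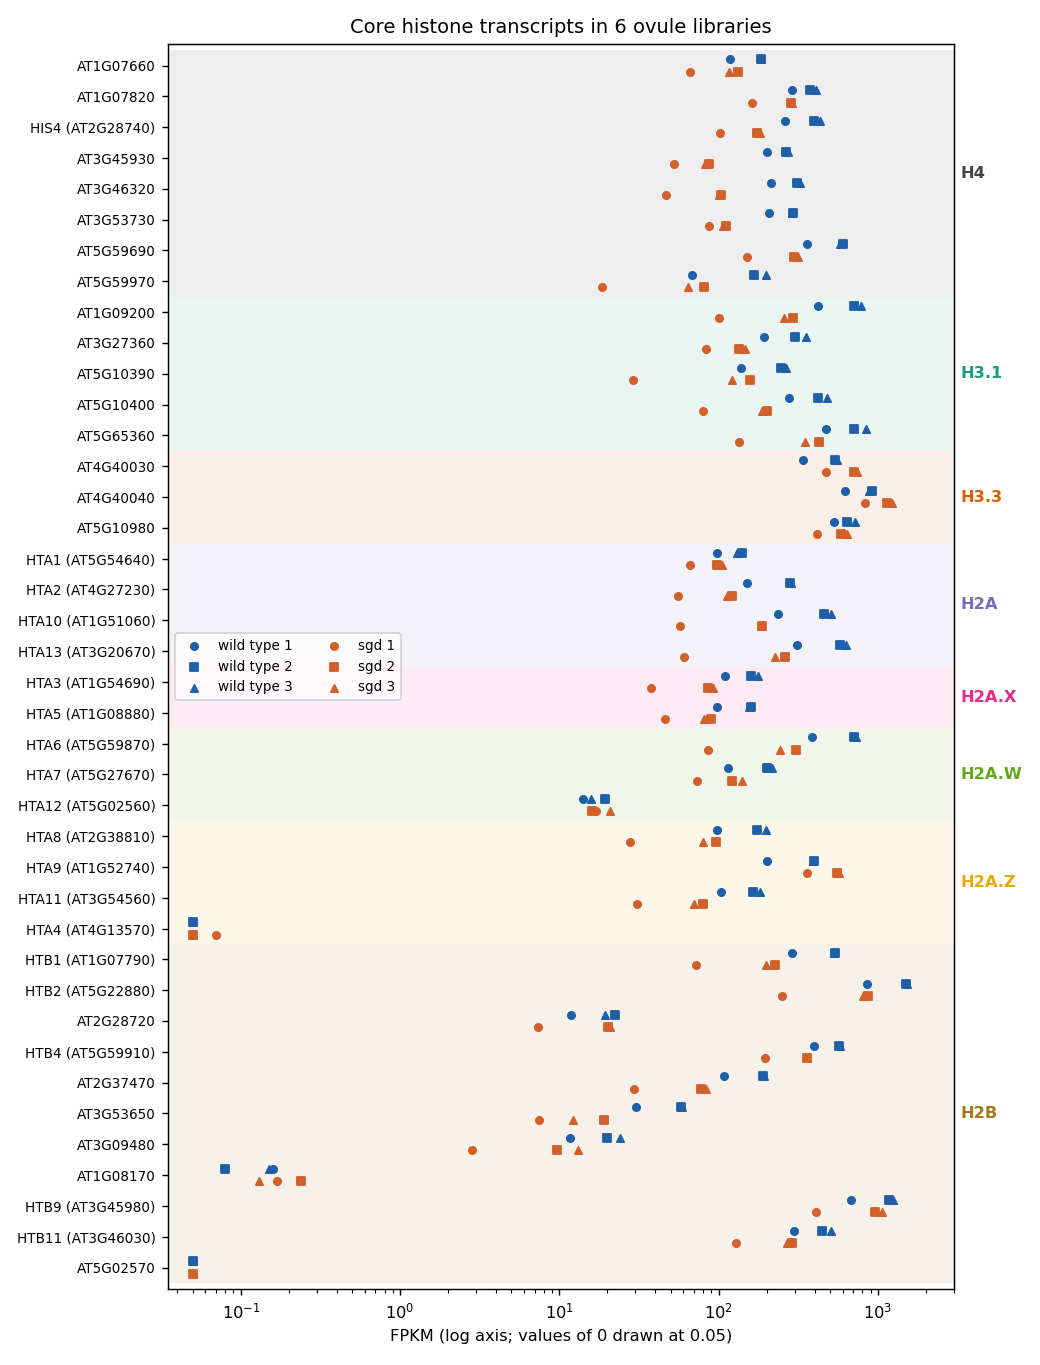
FPKM of each of the 40 core histone genes in the 6 libraries, on a log axis, with wild type in blue, sgd in orange and the library number given by the marker shape. Genes are grouped by class, and the circles of library 1 lie lowest of their genotype for most genes. For 22 genes all sgd points lie left of all wild-type points, and for AT4G40030, AT4G40040 and HTA9 each sgd point lies right of the wild-type point of the same shape.

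The libraries numbered 1 stood apart from the others in both genotypes. Organelle transcripts took 2.18% and 2.08% of their summed FPKM, against at most 0.0733% in the other 4 libraries. AT3G06355 alone had 44050 FPKM in wild-type library 1 and 33260 in sgd library 1, against 788 to 2563 in the others. Summed FPKM was 528715 and 561173, against 750410 to 796250. The median-ratio size factors were 0.741 and 0.803, against 1.06 to 1.21, so low values in the libraries numbered 1 were not particular to histone genes. The estimated depth of a library lay between 13200000 and 40100000 fragments, and at each number the sgd library was the shallower one. Each value of the tested members of the set rested on at least an estimated 37.9 fragments, the count behind AT3G09480 in its lowest library. The 40 genes together took 1.76% to 2.05% of summed FPKM in wild type and 0.863% to 1.23% in sgd. In bulk ovules, fewer cells in S phase and less histone RNA per cell cannot be told apart.

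Marker genes of other tissues differed between the groups too. Beside the counts below, 13.3% of all tested features were called higher and 4.47% lower without the block, and 14.3% lower with it. Pollen and sperm markers together summed to 9.06 to 18.9 FPKM in wild type and 58.1 to 129 in sgd, and 3 of the 4 tested of 7 were called higher (VGD1, AGP6 and AGP11, genes of pollen). These 3 genes carried the sum, while HAP2, a sperm gene too low to be tested, went from 1.16 ± 0.286 to 0.287 ± 0.170 FPKM (SD, n = 3) with no overlap. No marker of the 7 was listed at 0 in all libraries, although DUO1, a regulator of sperm formation, had at most 0.21 FPKM. Green tissue markers summed to 262 to 610 FPKM in wild type and 887 to 938 in sgd, with 2 of 6 called higher (CAB3 and RBCS1A). LHCB1.1, another of the 6, had the opposite sign at -1.17 and was called in neither fit, but without both libraries numbered 1 it was lower at -1.82 with adjusted p of 0.00444 (limma). Ovule markers summed to 751 to 1597 FPKM in wild type and 430 to 811 in sgd, with 2 of 6 called lower (ANT and BEL1, both regulators of ovule integuments). With the block described above, 4 of the 6 ovule markers were lower, and so was the sperm gene GEX2. The part of these markers in the histone differences was not tested.

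Values below are given in the order of libraries 1, 2 and 3, and changes are log2 changes of FPKM + 1 with the SE of the fit. All adjusted p-values come from limma with Benjamini-Hochberg adjustment over all tested features, first without and then with the number as a block.

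Histone H4, the partner of H3 in the core tetramer, showed the largest number of calls. Of the 8 H4 genes, 4 fell without the block and all 8 with it, at a median change of -1.30. Summed H4 FPKM was 2328 ± 538 in wild type and 1069 ± 334 in sgd (SD, n = 3), a ratio of 0.459.

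AT3G45930 gave 200.1, 266 and 273 FPKM in wild type and 52.6, 86.7 and 81.7 in sgd. Its change was -1.75 ± 0.33, with adjusted p of 0.00506 and 0.00305. AT3G46320 gave 213, 308 and 323 FPKM in wild type and 46.5, 103 and 100.1 in sgd, a change of -1.81 ± 0.39 with adjusted p of 0.00988 and 0.00461. In both genes every sgd library lay below every wild-type library. AT3G53730 gave 208, 293 and 290.2 FPKM in wild type and 86.8, 111 and 107 in sgd. It changed by -1.36 ± 0.32, with adjusted p of 0.0149 and 0.00366. Its sgd values were also the most even of the 3 genes, and the groups did not overlap. AT5G59690, the H4 gene with the highest mean level, gave 356, 601 and 579 FPKM in wild type and 149.8, 297 and 315 in sgd. The difference of -1.04 ± 0.43 was called with the block alone, with adjusted p of 0.127 and 0.00674, though its groups did not overlap.

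HIS4 (AT2G28740) was the other H4 gene called in both fits, at -1.25 ± 0.38, with adjusted p of 0.0462 and 0.00404. AT5G59970 had -1.49 ± 0.56, with adjusted p of 0.0995 and 0.00711, and its groups overlapped because wild-type library 1 was low at 68.0 FPKM. The smallest changes of the class were -0.65 in AT1G07660 and -0.57 in AT1G07820, which fell with the block only. The share of H4 FPKM that came from AT1G07820 was 15.5% ± 1.19 in wild type and 23.0% ± 0.651 in sgd. The share from AT3G46320 was 12.1% ± 0.290 and 7.64% ± 0.724. The H4 genes thus differed in size of change within the same libraries, and no test was made of that difference.

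AT3G45930 and AT3G46320 lie on chromosome 3 and are near copies. Over 250 bases upstream of the annotated starts they match at 247 positions (98.8%), and 11.1% and 12.1% of the 100-base words of their transcripts occur in the other gene, so the division of reads between them is uncertain. Both windows hold an E2F site, the sequence bound by the E2F factors that switch on S phase genes, 237 bases before the start. They are shown because these genes lead the H4 calls (RefSeq TAIR10.1, chr3:16883066-16883315 on the plus strand and chr3:17020429-17020678 on the minus strand), 5′ to 3′ along each gene, with capitals marking the E2F letters.
AT3G45930: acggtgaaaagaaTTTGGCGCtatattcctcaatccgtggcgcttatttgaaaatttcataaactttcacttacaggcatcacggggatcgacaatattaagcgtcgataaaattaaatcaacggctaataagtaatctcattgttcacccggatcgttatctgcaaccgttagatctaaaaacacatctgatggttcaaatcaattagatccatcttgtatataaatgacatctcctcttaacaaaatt
AT3G46320: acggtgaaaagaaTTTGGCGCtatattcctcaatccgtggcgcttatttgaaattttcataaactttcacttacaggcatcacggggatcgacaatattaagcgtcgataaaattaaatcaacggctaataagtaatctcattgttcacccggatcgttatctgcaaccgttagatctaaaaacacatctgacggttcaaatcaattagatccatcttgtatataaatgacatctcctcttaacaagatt

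E2F letters were searched as TTTCCCGC or TTTGGCGC on both strands, from 250 bases before to 50 bases after each start. They were found in these 2 of the 40 histone windows and in 1.21% of all 27443 windows.

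Histone H3 is made from the H3.1 genes, coupled to replication, and the H3.3 genes, which are not. The pair of classes parted in sgd ovules. All 5 H3.1 genes were lower with the block and 1 without it, at a median of -1.33, while the 3 H3.3 genes had a median of 0.40 and 1 of them rose with the block.

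AT1G09200, an H3.1 gene, gave 419.6, 711 and 787 FPKM in wild type and 101, 293 and 255 in sgd. Its change was -1.65 ± 0.48, with adjusted p of 0.0404 and 0.00612. Its groups did not overlap, and sgd library 1 was well under the other sgd libraries. AT3G27360 gave 192, 303 and 351 FPKM against 83.4, 134 and 146, a change of -1.21 ± 0.37 with adjusted p of 0.05003 and 0.0039. AT5G10400 gave 278, 420.4 and 482 FPKM against 79.3, 202 and 188, a change of -1.40 ± 0.44 with adjusted p of 0.0510 and 0.00738. Both missed the threshold narrowly without the block, and in neither did the groups overlap. AT5G65360, the H3.1 gene of highest mean, gave 474, 708 and 837 FPKM against 133.7, 426 and 346. Its change was -1.27 ± 0.50, with adjusted p of 0.111 and 0.0159. Sgd library 2 came close to wild-type library 1 in this gene. The remaining one, AT5G10390, lies 577 bases from AT5G10400 and changed by -1.33 ± 0.57, with adjusted p of 0.147 and 0.0311 and overlapping groups. AT3G27360 shares 31.2% of its 100-base words with the overlapping locus AT3G27380, so its reads are less certain.

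The octamer CGCGGATC is known from plant promoters of H3 and H4 genes. Searched on both strands, it was found in 9 of the 40 histone windows and in 40 of all 27443 windows (0.146%), so 9 of those 40 windows belong to core histone genes. The 3 H3.1 promoters that hold it are shown, as the 160 bases before the start, with the octamer in capitals: AT1G09200 (chr1:2972335-2972494), AT5G10400 (chr5:3270958-3271117) and AT5G65360 (chr5:26120582-26120741), all on the minus strand of TAIR10.1.
AT1G09200: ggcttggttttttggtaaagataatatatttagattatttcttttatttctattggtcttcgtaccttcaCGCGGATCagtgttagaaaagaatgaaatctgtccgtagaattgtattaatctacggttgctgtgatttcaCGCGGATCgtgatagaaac
AT5G10400: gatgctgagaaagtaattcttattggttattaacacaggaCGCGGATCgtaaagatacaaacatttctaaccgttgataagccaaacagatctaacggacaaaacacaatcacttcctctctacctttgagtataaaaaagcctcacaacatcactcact
AT5G65360: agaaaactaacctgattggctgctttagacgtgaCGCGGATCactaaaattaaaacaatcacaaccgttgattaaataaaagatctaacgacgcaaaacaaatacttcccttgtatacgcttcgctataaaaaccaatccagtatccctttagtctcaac

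AT1G09200 carries it in 2 places. AT5G10400 also holds the hexamer ACGTCA, 167 bases before the start and so outside the stretch shown. That pairing occurred in 3 of all windows (0.0109%).

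Among the H3.3 genes, AT4G40030 gave 339, 537 and 550.4 FPKM in wild type and 469, 708 and 743 in sgd. Its change was 0.43 ± 0.42, with adjusted p of 0.557 and 0.0306, so it rose with the block only, and with the block under median-ratio scaling the adjusted p was 0.0724. AT4G40040 gave 625.5, 915 and 877 FPKM against 834.5, 1135 and 1229, a change of 0.40 ± 0.44 with adjusted p of 0.610 and 0.0531. In both genes sgd exceeded wild type at each of the 3 numbers, although the groups overlapped because the libraries numbered 1 were low. AT5G10980 gave 529.7, 639 and 718 FPKM against 412, 583 and 638. Its change was -0.22 ± 0.40, with adjusted p of 0.780 and 0.179, and sgd was lower at each number. AT4G40030 and AT4G40040 are neighbours on chromosome 4, on the same strand with 42 bases between them.

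AT4G40040 was the only H3.3 gene with an octamer, and the only 1 of the 9 octamer genes that was not lower with the block. Its octamer lies 17 bases before the start, on the opposite strand to the gene (TAIR10.1 chr4:18558946-18559105, minus strand), and the promoter is shown for contrast with those of H3.1.
AT4G40040: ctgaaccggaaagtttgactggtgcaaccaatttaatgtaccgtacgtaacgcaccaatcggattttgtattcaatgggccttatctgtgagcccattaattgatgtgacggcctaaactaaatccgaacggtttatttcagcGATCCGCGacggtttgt

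Summed H3.1 FPKM was 1502, 2387 and 2721 in wild type and 426, 1212 and 1056 in sgd. Summed H3.3 FPKM was 1494, 2091 and 2146 in wild type and 1715, 2426 and 2610 in sgd. Per unit length, H3.1 transcripts exceeded H3.3 in every wild-type library, barely so in library 1, and were the minority in every sgd library. H3.1 made up 50.1%, 53.3% and 55.9% of H3 FPKM in wild type and 19.9%, 33.3% and 28.8% in sgd, a mean of 53.1% ± 2.90 against 27.3% ± 6.83 (SD, n = 3). This share does not depend on how libraries are scaled to each other, and no test was made of it because the genes were chosen with earlier results known.

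**Figure D2:**
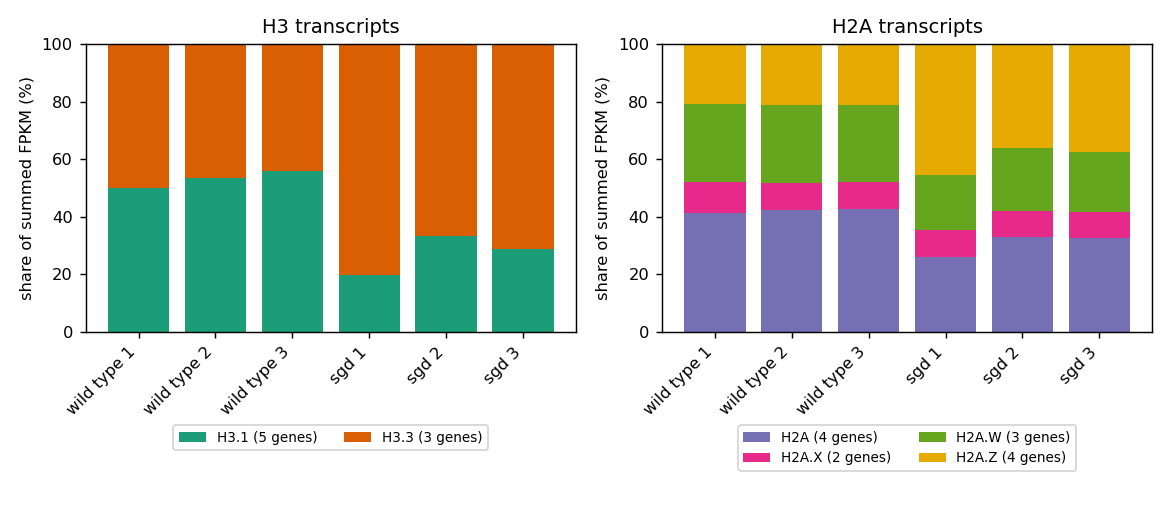
Share of summed FPKM taken by each class within H3 (left) and within H2A (right), one bar per library. H3.1 makes up 50.1% to 55.9% of H3 in wild type and 19.9% to 33.3% in sgd, and H2A.Z takes 21.0% to 21.3% of H2A in wild type and 36.3% to 45.6% in sgd.

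The replication-coupled H2A genes (HTA1, HTA2, HTA10 and HTA13) had a median change of -1.45, and all 4 fell with the block and 0 without it. HTA13 (AT3G20670), the highest of them, gave 308, 574 and 627.5 FPKM in wild type and 60.5, 262 and 227 in sgd. Its change was -1.64 ± 0.56, with adjusted p of 0.0720 and 0.0117. HTA10 (AT1G51060) gave 234.5, 459 and 507 FPKM against 57.1, 186 and 183, a change of -1.59 ± 0.51 with adjusted p of 0.0572 and 0.00611. Sgd library 1 was the lowest library by far in both, and the groups did not overlap. HTA2 (AT4G27230) gave 150.0, 281 and 284 FPKM against 56.0, 121.5 and 112. Its change was -1.31 ± 0.41, with adjusted p of 0.05006 and 0.00379. HTA1 had the smallest difference of the class, -0.46 ± 0.32, with adjusted p of 0.384 and 0.0220 and overlapping groups.

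HTA10 carries the octamer 2 times, once on each strand, and HTA13 carries it once on the opposite strand. HTA6, an H2A.W gene, is the only other H2A-family gene that holds it. They are shown with the octamer in capitals, on TAIR10.1 at chr1:18926651-18926810 (plus strand), chr3:7229230-7229389 (plus strand) and chr5:24116221-24116380 (minus strand).
HTA10: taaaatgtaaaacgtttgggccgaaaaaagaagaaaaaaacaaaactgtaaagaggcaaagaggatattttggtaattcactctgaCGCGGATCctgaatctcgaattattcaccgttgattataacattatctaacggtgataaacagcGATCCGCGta
HTA13: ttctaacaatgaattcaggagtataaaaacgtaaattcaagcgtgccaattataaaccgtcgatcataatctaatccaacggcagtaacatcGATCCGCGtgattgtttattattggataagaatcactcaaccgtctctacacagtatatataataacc
HTA6: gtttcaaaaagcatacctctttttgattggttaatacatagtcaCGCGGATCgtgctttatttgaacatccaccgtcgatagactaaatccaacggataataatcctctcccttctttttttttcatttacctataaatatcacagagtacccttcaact

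H2A.W genes did not move as one. HTA6 (AT5G59870), the most abundant, gave 386, 705.5 and 731 FPKM in wild type and 85.7, 304.5 and 241 in sgd, a change of -1.65 ± 0.52 with adjusted p of 0.0512 and 0.0078. HTA7 (AT5G27670) gave 115, 202 and 215 FPKM against 72.6, 121 and 139.8, a change of -0.67 ± 0.38 with adjusted p of 0.278 and 0.00832. HTA6 groups were apart, while HTA7 overlapped through wild-type library 1. HTA12 (AT5G02560) gave 14.1, 19.3 and 15.8 FPKM against 17.0, 16.0 and 20.8. Its change of 0.12 ± 0.25 had adjusted p of 0.805 and 0.555, and the sign turned to -0.00552 under median-ratio scaling and -0.0645 under quantile normalization. An H2B gene, AT5G02570, lies within the HTA12 transcript on the other strand, shares 100% of its 100-base words with it, and was listed at 0 in all 6 libraries. Of the 100-base words of HTA12, 28.1% are shared with AT5G02570. The sources used here do not say whether counting used strand, so reads of the shared stretch cannot be told apart.

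The H2A.X genes were both lower with the block. HTA3 (AT1G54690) gave 109.6, 161 and 176.5 FPKM in wild type and 37.6, 86.0 and 91.8 in sgd, a change of -1.12 ± 0.39 with adjusted p of 0.0791 and 0.00973. HTA5 (AT1G08880) gave 98.0, 159.9 and 155 FPKM against 46.0, 89.1 and 80.5, a change of -0.95 ± 0.36 with adjusted p of 0.0965 and 0.00569. Neither gene had overlapping groups. HTA3 shares 42.9% of its 100-base words with AT1G54680 and AT1G07983. H2A.X was the class whose share of H2A moved least, from 9.79% ± 0.917 to 8.93% ± 0.216.

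H2A.Z was split between its genes. HTA9 (AT1G52740) gave 202, 394 and 389 FPKM in wild type and 359.7, 554 and 570.3 in sgd. Its change was 0.62 ± 0.42, with adjusted p of 0.371 and 0.0179. Under median-ratio scaling the adjusted p was 0.0523 without the block and 0.0343 with it. HTA9 was called in 5 of the 18 settings. Sgd exceeded wild type at each number, and the groups overlapped through sgd library 1. HTA11 (AT3G54560) gave 103, 164.5 and 183 FPKM against 30.6, 80.0 and 70.5, a change of -1.37 ± 0.41 with adjusted p of 0.0428 and 0.00665. HTA8 (AT2G38810) gave 97.2, 173 and 199 FPKM against 27.7, 96.0 and 80.3, a change of -1.31 ± 0.48 with adjusted p of 0.0898 and 0.0109. Both lay below wild type in every sgd library. The fourth gene, HTA4 (AT4G13570), was listed at 0 except for 0.07 FPKM in sgd library 1, and was not tested.

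Without rescaling, summed H2A.Z FPKM differed little, at 635 ± 203 in wild type and 623 ± 178 in sgd (SD, n = 3). The ratios at the 3 numbers were 1.04, 0.998 and 0.936. After median-ratio scaling the sum was 644 ± 88.0 in wild type and 577 ± 49.7 in sgd, with ratios of 0.960, 0.890 and 0.853. HTA9 made up 50.2%, 53.9% and 50.5% of the H2A.Z sum in wild type and 86.0%, 75.9% and 79.1% in sgd. The FPKM of HTA9 over that of HTA8 plus HTA11 was 1.01, 1.17 and 1.02 in wild type and 6.16, 3.15 and 3.78 in sgd. The H2A.Z transcripts of wild-type ovules were thus shared about evenly between HTA9 and the other 2 genes, and those of sgd ovules came mostly from HTA9. None of the H2A.Z windows held an octamer, a hexamer or an E2F site, which says only that those letters are not there.

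**Figure D3:**
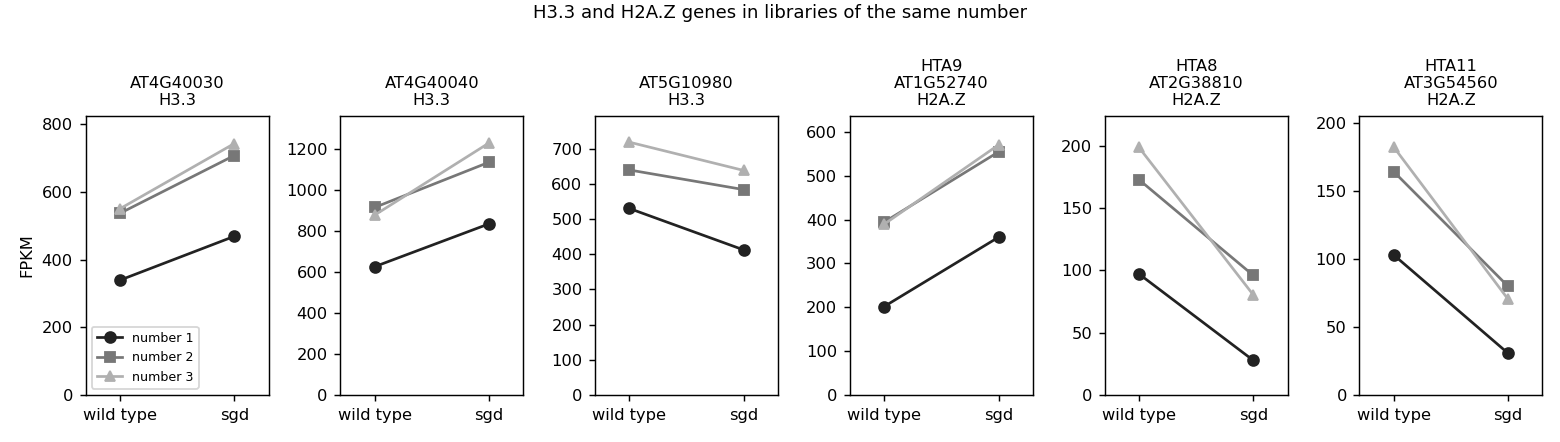
FPKM of the 3 H3.3 genes and the 3 detected H2A.Z genes, with lines joining the wild-type and sgd libraries of the same number. All lines rise for AT4G40030, AT4G40040 and HTA9, and all fall for AT5G10980, HTA8 and HTA11, while library 1 is the lowest of its genotype in each panel.

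Within H2A as a whole, H2A.Z made up 21.2% ± 0.193 of FPKM in wild type and 39.8% ± 5.07 in sgd. The replication-coupled class went from 42.2% ± 0.798 to 30.7% ± 3.89, and H2A.W from 26.8% ± 0.183 to 20.6% ± 1.42 (SD, n = 3). The groups did not overlap in any of these 3 shares.

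Of the 11 H2B genes, 9 were tested, 2 fell without the block and 7 with it, at a median of -1.15. Summed H2B FPKM was 3949 ± 1108 in wild type and 2249 ± 993 in sgd (SD, n = 3). AT3G53650 had the largest fall of any core histone gene, with 30.3, 57.7 and 59.2 FPKM in wild type and 7.47, 19.0 and 12.2 in sgd. Its change was -1.87 ± 0.38, with adjusted p of 0.00691 and 0.00436. AT2G37470 gave 108, 189 and 191 FPKM against 29.3, 78.0 and 83.6, a change of -1.43 ± 0.44 with adjusted p of 0.0464 and 0.00657. Both had every sgd library below every wild-type library. HTB1 (AT1G07790) gave 289, 541 and 526 FPKM against 72.5, 227 and 198, a change of -1.55 ± 0.49 with adjusted p of 0.0525 and 0.00655. HTB2 (AT5G22880) had the highest mean of all 40 genes, with 853, 1493 and 1520 FPKM in wild type and 251, 872 and 800.5 in sgd. The HTB2 change was -1.15 ± 0.57, with adjusted p of 0.206 and 0.0202, and sgd library 2 exceeded wild-type library 1.

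HTB11 and HTB4 changed by -0.90 and -0.79 and AT3G09480 by -1.18, all called with the block only. HTB9, the second most abundant of the class, went from 1030 ± 309 to 808 ± 350 FPKM, a change of -0.42 ± 0.52 with adjusted p of 0.664 and 0.0882, and it was called lower with the block under median-ratio scaling, at an adjusted p of 0.0373. HTB9 therefore made up 26.0% ± 0.684 of H2B FPKM in wild type and 36.1% ± 1.99 in sgd. AT2G28720 had 17.9 ± 5.37 FPKM in wild type and 16.2 ± 7.63 in sgd, with adjusted p of 0.782 and 0.340. HTB9 shares 23.9% of its 100-base words with AT3G07315. Of the untested genes, AT1G08170 had 0.08 to 0.24 FPKM and AT5G02570 was listed at 0, as given above.

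**Figure D4:**
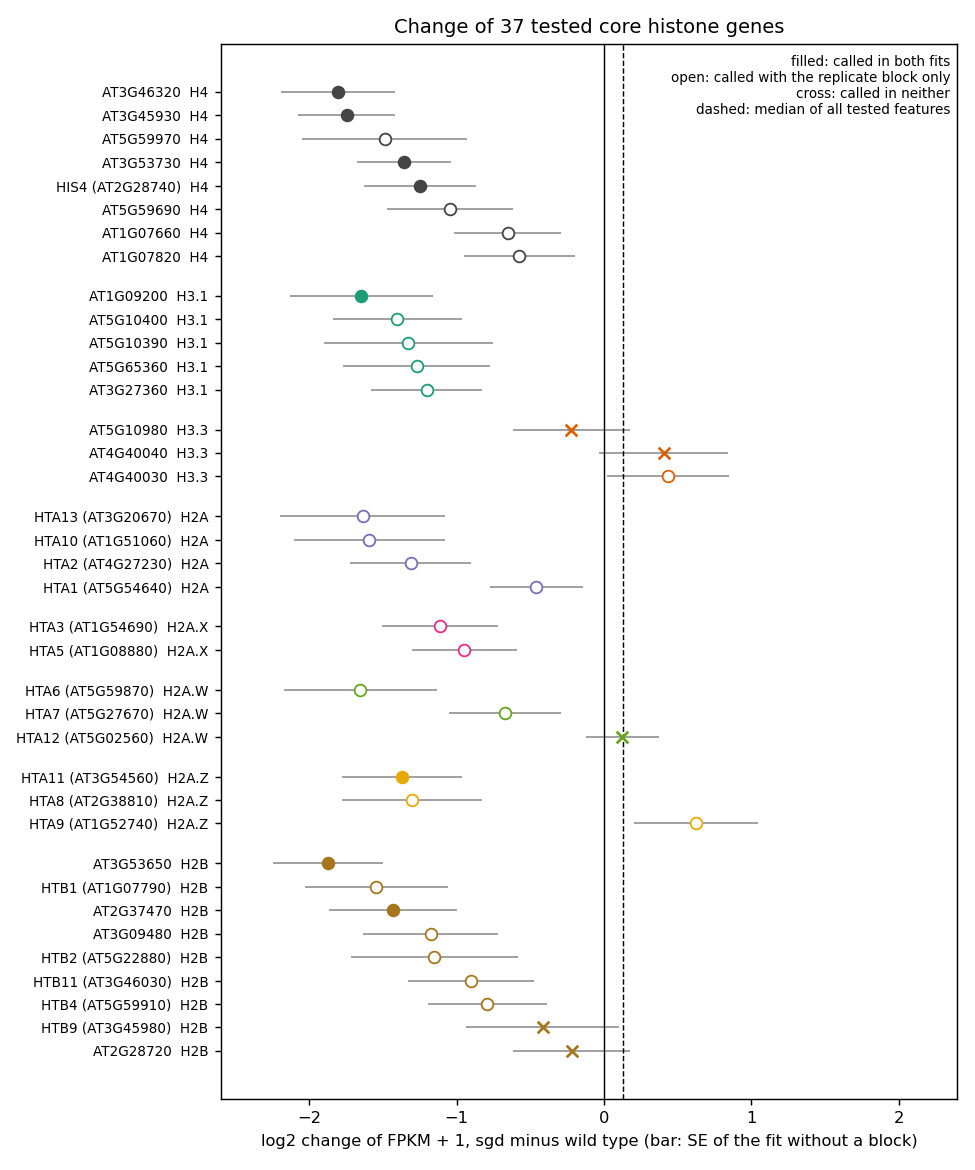
Log2 change of FPKM + 1, sgd minus wild type, with the SE of the fit without a block as bars, for the 37 tested core histone genes by class. Filled points are the 8 genes called in both fits, open points those called with the number as a block only, and crosses the 5 called in neither. The dashed line is the median of all tested features, 0.127.

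The hexamer ACGTCA, known from a wheat histone H3 promoter, was found in 13 of the 40 histone windows against 9.19% of all windows, and 9 of the 13 belong to H2B. The H2B genes called lower in both fits are shown with the hexamer in capitals, on TAIR10.1 at chr3:19889137-19889296 and chr2:15736567-15736726, both on the plus strand.
AT3G53650: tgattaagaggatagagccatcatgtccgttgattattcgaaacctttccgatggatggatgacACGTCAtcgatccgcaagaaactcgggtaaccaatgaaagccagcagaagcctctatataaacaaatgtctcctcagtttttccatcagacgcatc
AT2G37470: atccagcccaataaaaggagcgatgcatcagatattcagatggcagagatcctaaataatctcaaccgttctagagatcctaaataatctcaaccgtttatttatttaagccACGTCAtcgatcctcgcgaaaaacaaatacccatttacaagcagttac

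Changes were also read by promoter motif. The 9 octamer genes had a median change of -1.40, with 1 lower without the block and 8 with it. The 28 tested genes without an octamer had a median of -1.17, with 7 lower without the block and 22 with it. Of all tested features 4.47% were lower without the block and 14.3% with it. The 12 tested hexamer genes had a median of -1.03 and the 15 tested genes with no motif -1.18. Only exact letters were matched, so windows with 1 letter changed, as in HIS4 and AT5G59970, counted as having no octamer. The genes were chosen with results known, so these are descriptions and no test was made between them.

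**Figure D5:**
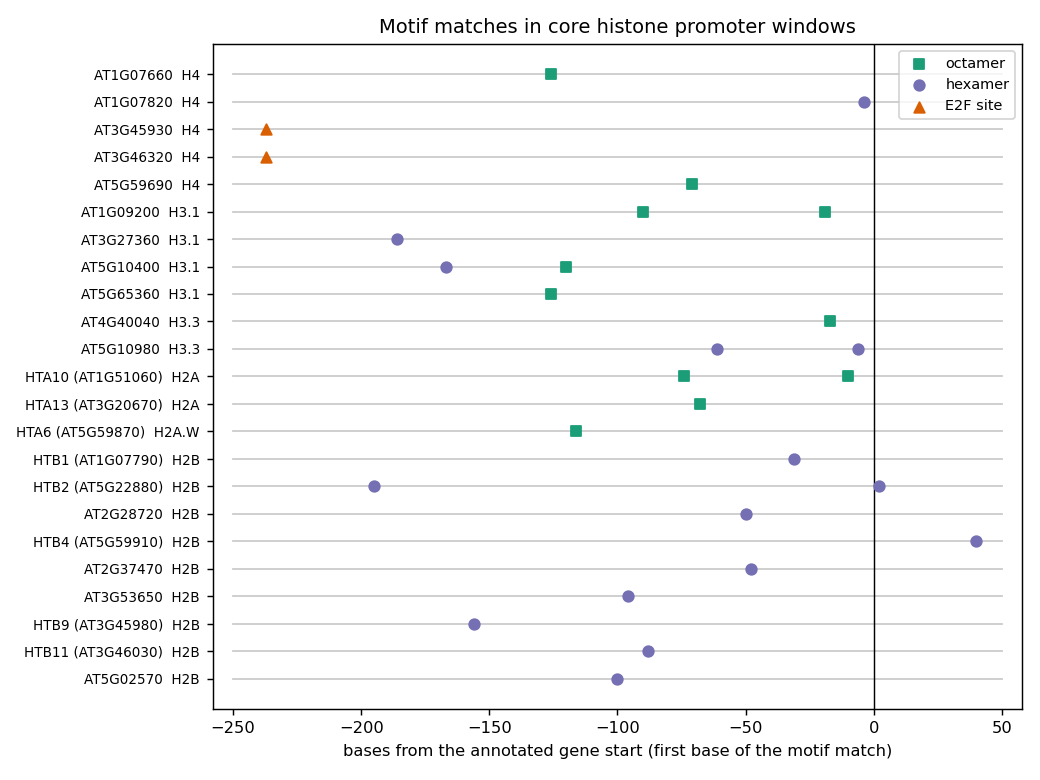
Positions of octamer, hexamer and E2F matches relative to the annotated start, from 250 bases before to 50 bases after it, for the 23 core histone genes with at least 1 match. Octamers (squares) lie in H4, H3.1, AT4G40040, H2A and HTA6 windows, and hexamers (circles) mainly in H2B windows.

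Gene structure and position varied within the set. The 21 tested genes with 1 exon had a median change of -1.27, and 19 of them were lower with the block. The 16 tested genes with 2 or more exons had a median of -0.81, with 11 lower and 2 higher with the block. Of all tested features 14.3% were lower and 26.5% higher with the block. Exon number largely followed class, as the genes with 1 exon were all H4, H3.1 or H2B. All H3.3 and H2A-family genes had 2 or more exons, so exon number and class cannot be told apart here. Of the 40 genes, 20 lie within 100000 bases of another member, in 8 groups. Neighbours did not always have like values: HIS4 changed by -1.25 and AT2G28720, 1536 bases away on chromosome 2, by -0.22. Among the 29 tested genes whose transcripts share no 100-base word with another gene, 6 were lower without the block and 24 with it. The shares lower of all tested features were 4.47% and 14.3%.

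Other H3 genes and the factors that handle histones were read from the same fit. HTR12, the centromeric H3 (CENH3), went from 38.0 ± 11.6 to 15.1 ± 6.31 FPKM, a change of -1.32 ± 0.37 with adjusted p of 0.0339 and 0.00506. It was the only 1 of the 4 tested of 6 other H3 genes to be called in either fit. HTR14, another of the 4, went from 0.857 ± 0.268 to 2.49 ± 0.858 FPKM with no overlap, with adjusted p of 0.0788 and 0.0718. Without both libraries numbered 1 it was higher at 1.22, with adjusted p of 0.00502 (limma). Its values rested on only an estimated 8.99 to 16.0 fragments. HTR10, the H3 of sperm cells, stayed under 1 FPKM and was not tested.

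Of 18 histone chaperone genes, 1 fell without the block, and 4 fell and 1 rose with it. Among all tested features 4.47% fell without the block, and 14.3% fell and 26.5% rose with it. FAS2, a subunit of CAF-1, went from 10.6, 17.2 and 19.8 FPKM to 3.97, 7.93 and 8.73, a change of -1.12 ± 0.33 with adjusted p of 0.0435 and 0.00579. FAS1, the largest subunit of CAF-1, changed by -0.93 ± 0.30, with adjusted p of 0.0586 and 0.0299. MSI1, another subunit of CAF-1, changed by -0.35 ± 0.38 and was called in neither fit, with adjusted p of 0.618 and 0.0507. It was lower with the block under median-ratio scaling (adjusted p of 0.0209) and without both libraries numbered 1 (0.0413). HIRA, a chaperone of H3.3, had a difference of 0.09 and was called in neither fit. NAP1;1, an H2A-H2B chaperone, changed by 0.64 ± 0.34, with adjusted p of 0.251 and 0.00952. NASP and ASF1B fell with the block only, with adjusted p of 0.0120 and 0.0234 in that fit. The median change over the 18 genes was -0.069.

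Of 5 genes for H2A.Z exchange, 1 rose without the block and 2 with it, against 13.3% and 26.5% of all tested features. INO80, a chromatin remodeller, went from 28.9, 34.5 and 33.8 FPKM to 71.4, 55.2 and 68.4, a change of 0.98 ± 0.26 with adjusted p of 0.0263 and 0.0105. SWC6, a subunit of SWR1, changed by 0.62 ± 0.30, with adjusted p of 0.191 and 0.0145. PIE1, the SWR1 motor subunit, had a difference of 0.07 and was called in neither fit.

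Genes of S phase were lower in sgd as well. Of 16, 5 fell without the block and 14 with it, at a median of -1.10. For all tested features the shares were 4.47% lower without the block, and 14.3% lower and 26.5% higher with it. With median-ratio scaling 18.2% of all tested features were lower. TSO2, a small subunit of ribonucleotide reductase, went from 49.3, 59.9 and 70.3 FPKM to 12.8, 35.3 and 21.8, a change of -1.42 ± 0.36 with adjusted p of 0.0214 and 0.0142. CDC6 and CDT1A, which license replication origins, changed by -1.14 and -1.24, and MCM2, a helicase subunit, by -1.18, each called in both fits. MCM3 was the fifth. The count of 5 was 0 without any one of the wild-type libraries, and 3, 11 and 1 without sgd library 1, 2 or 3. The 6 genes for E2F factors, their DP partners and RBR1 gave 0 calls without the block, 0 at an unadjusted p under 0.05 in limma, and 1 lower with it. With median-ratio scaling 4 of these 6 were lower, and without both libraries numbered 1 there were 2. Of 10 genes used as references in expression studies, 0 were called without the block, 0 at an unadjusted p under 0.05, and 3 were lower and 1 higher with it. With median-ratio scaling 3 of the 10 were lower, and without both libraries numbered 1 there were 4 lower and 1 higher.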

How the data were processed

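The authors deposited 1 table of FPKM values per library, 6 in all, per the file headers. The submitters' processing notes name TAIR10 as the build and list RSEM, TopHat2 2.1.1, cutadapt 1.15, DESeq2 and CASAVA without saying what each did. RSEM can divide reads between near-identical copies.

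Members were matched by locus, and symbols were taken from the RefSeq table of TAIR10.1. The members and gene lists were chosen with earlier results of these data known. Of 79 list genes, 1 of them (HTR10) in 2 lists, 68 matched by symbol and the others were kept by locus. The tests used limma 3.58.1 (R 4.3.3; lmFit, eBayes with a trend, two-sided) for features with a mean of at least 1 FPKM, on log2(FPKM + 1), a scale that understates the change of low genes. The test and the depth estimate were checked on simulated data. For the test, scatter was drawn independently for each gene and library, with no shift shared by the libraries numbered 1. That check cannot show how the test behaves under such a shift. Genes given in every library were, within each class, the 3 with the smallest p and the one with the highest mean. From the other lists some of the called genes were named, along with some that were not called.

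Replicate numbers come from the sample titles. Deviations from the group means correlated at 0.524, 0.236 and 0.377 between libraries numbered 1, 2 and 3. On that ground the numbers were taken to pair the libraries. The correlations of wild type 2 with sgd 3 (0.354) and of wild type 3 with sgd 2 (0.431) were as high. Within each gene the 3 deviations of a genotype cancel out. A library 1 that stands apart in both genotypes thus makes numbers 2 and 3 correlate by itself. The values therefore show a likeness of the libraries numbered 1 only, and cannot decide whether numbers 2 and 3 are pairs.

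Since FPKM hold no read counts, the depth of each library was fitted from the spacing of its low values. At the fitted spacing 95.0% to 96.8% of those values came within 0.2 of whole fragments, and the estimates cover counting only. Gene positions, shared 50- and 100-base words and promoter windows were read by locus from RefSeq TAIR10.1, since the files hold no coordinates. A comparison of histone proteins was planned and not run, because protein sequences were not used here.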

Additional observations from a re-analysis of the deposited data

How the results depend on the processing

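Against 8 core histone genes called lower, there were 4 with no filter on low values, 13 at a mean of at least 5 FPKM, 14 without a trend in eBayes, 29 after rescaling to equal totals, 30 with median-ratio scaling, 29 with quantile normalization, 30 with the replicate block, 31 with median-ratio scaling and the replicate block, and 30 without both libraries numbered 1. Leaving out 1 library gave 3 to 16. The 8 genes were called again in all of these except with no filter (4 of them) and when 1 library was left out (3 to 7). Against 0 called higher there were 1 with equal totals, 3 with quantile normalization, 2 with the replicate block, 1 with it and median-ratio scaling, and 3 without both libraries numbered 1. Leaving out 1 library gave 0 throughout. The share of all features called was counted only for the fit that gave 8, the replicate block and median-ratio scaling alone.

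For the chaperone and H2A.Z exchange genes together, 1 lower became 0 with no filter or no trend, 3 with equal totals, 4 with median-ratio scaling, quantile normalization or the replicate block, 7 with the block and median-ratio scaling, 5 without both libraries numbered 1, and 0 to 2 without 1 library. Their 1 higher became 3 under each rescaling and the replicate block, 4 without both libraries numbered 1, and 0 to 2 without 1 library. For the S phase genes, 5 lower became 0 with no filter, 15 under each rescaling, 14 with the replicate block, with or without median-ratio scaling, and without both libraries numbered 1, and 0 to 11 without 1 library. The cause was not tested.

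Signs turned for HTA12 (-0.00552 with median-ratio scaling, with or without the replicate block, and -0.0645 with quantile normalization), AT2G28720 (-0.472 to 0.237 when 1 library was left out, positive without sgd 1) and HTB9 (-0.696 to 0.0165, positive without sgd 1). Over 37 genes and 17 alternatives, 431 of 629 values kept sign and side of the threshold, 167 passed it newly and 26 lost it. The H3.1 share of H3, at -25.8 points, differed by -28.8 to -22.1 points over its alternatives, moves larger than the wild-type SD of 2.90 at both ends and smaller than the sgd SD of 6.83.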
